A study of Mus musculus with 1279 samples.

Results

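The 10 genes Colec11, Tspan15, Ttyh2, Oaf, Slc43a3, Nrip2, Grip2, Net1, Perp and Clu are lesser known genes that differ between pericyte-like and smooth muscle-like cells of the mouse heart. Colec11, Tspan15 and Ttyh2 were high in the pericyte-like cells, Nrip2 and Grip2 in the smooth muscle-like cells of cluster 7, Oaf and Slc43a3 in pericyte-like cells and in fibroblasts, with Slc43a3 higher in the fibroblasts, and Net1, Perp and Clu in smooth muscle-like cells, with Clu also high in fibroblast cluster 1. These 10 of the 46517 genes measured were chosen by their measured difference between cluster 8 and cluster 7, so that difference is given here as a description without a test. The fibroblasts, cluster 6 and the C57BL6 cells of cluster 8 had no part in that contrast, but the genes were chosen with results over all clusters known, so their values there are no independent support.

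The data were read counts of 1279 single heart cells, sequenced with Smart-seq2, a plate-based method that reads along the whole transcript and carries no molecular identifiers. All cells came from untreated adult male mice aged 10 to 20 weeks, from 4 strains that the study had backcrossed to C57Bl6/J. Cells of C57BL6 mice were sorted with antibodies to PDGFRα or PDGFRβ. PdgfrbGFP, Cspg4dsRED and Acta2GFP mice carried a fluorescent reporter under regulatory sequences of Pdgfrb, Cspg4 or Acta2, so that the reporter decided which cells entered. Endothelial cells with CD31 were sorted away in all strains, and elastase was added to the digestion for Acta2GFP only. The cells carry cluster numbers from 1 to 8, formed by the study from these same counts. Clusters 1 to 5 held 926 fibroblasts, with cluster 1 described as likely valve interstitial cells. Clusters 6, 7 and 8 held the other 353 cells and were read here from marker genes.

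Pericytes are the cells that sit on capillaries inside the vessel basement membrane, and smooth muscle cells form the contractile coat of arterioles, arteries and veins. Both are called mural cells, both express the PDGF receptor Pdgfrb, and both are hard to tell from fibroblasts with a single marker. Pericytes of the heart are usually known by the potassium channel subunits Kcnj8 and Abcc9, and smooth muscle cells by contractile proteins such as Acta2 and Myh11.

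The strain was the replicate. Counts were summed over the cells of one strain and cluster and given as CPM, the count divided by the sum's total and scaled to 1e+06, and a sum needed 3 cells or more. Strain, sort and plate cannot be told apart, since each reporter strain came from 1 plate, and the labels name no animal, so the spread over strains may be partly technical. Totals per cell ran from 46268 to 1302397 counts with a median of 274504, and the median was lower in cluster 8 (167874) than in cluster 7 (243989).

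The labels were checked against marker lists. The 5 pericyte markers Kcnj8, Abcc9, Rgs5, Vtn and Higd1b summed to 7272 to 24603 CPM in cluster 8 and to 2749 to 9965 CPM in cluster 7. The 4 smooth muscle markers Acta2, Myh11, Tagln and Cnn1 summed to 10670 to 15717 CPM in cluster 7, to 9946 to 13384 CPM in cluster 6 and to 201.05 to 4033 CPM in cluster 8. Cluster 8 was therefore called pericyte-like and clusters 6 and 7 smooth muscle-like, with the 4 large vessel genes Sost, Cbr2, Eln and Itga8 at 1675 to 4462 CPM in cluster 6 against 4.42 to 308 CPM in cluster 7. Sost and Cbr2 were at 0 in the C57BL6 cells of cluster 6 and in cluster 7 of PdgfrbGFP, so that these sums, the lowest of their clusters, held Eln and Itga8 only. The 7 endothelial markers summed to at most 277.46 CPM in these 3 clusters. The 9 cardiomyocyte markers summed to 1334 to 1965 CPM in cluster 7 and 6.86 to 1541 CPM in cluster 6 against 189.67 to 409 CPM in cluster 8. Most of the sum of cluster 7 was Pln, a gene that smooth muscle also expresses. All 9 had counts in these clusters of Cspg4dsRED and Acta2GFP and in cluster 8 of C57BL6, whereas Nppa was at 0 in cluster 8 of PdgfrbGFP, Myh6, Actc1, Nppa and Ryr2 were at 0 in cluster 7 of PdgfrbGFP, and Actc1, Nppa, Tnni3, Pln and Mb were at 0 in cluster 6 of C57BL6. The part of these markers in the levels of Nrip2, Grip2, Net1, Perp and Clu was not tested. The 5 mesothelial and epithelial markers reached 196.49 CPM in cluster 6 of Acta2GFP, all of it Krt18. A sum that stood apart was cluster 7 of PdgfrbGFP, whose 9 cells had pericyte markers at 9965 CPM against 2749 and 3121 CPM in the other strains and immune markers at 184.48 CPM, all of it Lyz2. Also apart were cluster 8 of Acta2GFP, with the lowest pericyte and the highest smooth muscle sum of its cluster, and the 3 C57BL6 cells of cluster 6, whose 5 fibroblast markers summed to 9822 CPM against 1797 and 2167 CPM in the other 2 strains.

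The promoters of the 3 pericyte genes and of Grip2 are shown as examples of genes that were high in one mural cluster and low in the other. Each line gives 250 bases before and 50 after the RefSeq start on GRCm38.p6, 5′ to 3′ on the gene's strand, with motif matches in capitals. The windows lie at chr12:28623281-28623580 (minus strand) for Colec11, chr10:62231169-62231468 (minus) for Tspan15, chr11:114675218-114675517 (plus) for Ttyh2 and chr6:91807344-91807643 (minus) for Grip2.
Colec11: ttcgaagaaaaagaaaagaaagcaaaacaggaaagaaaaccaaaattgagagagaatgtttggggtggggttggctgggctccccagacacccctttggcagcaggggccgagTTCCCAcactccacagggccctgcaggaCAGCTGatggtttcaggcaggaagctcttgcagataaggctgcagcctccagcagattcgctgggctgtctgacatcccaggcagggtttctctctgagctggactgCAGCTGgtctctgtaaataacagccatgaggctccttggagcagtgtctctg
Tspan15: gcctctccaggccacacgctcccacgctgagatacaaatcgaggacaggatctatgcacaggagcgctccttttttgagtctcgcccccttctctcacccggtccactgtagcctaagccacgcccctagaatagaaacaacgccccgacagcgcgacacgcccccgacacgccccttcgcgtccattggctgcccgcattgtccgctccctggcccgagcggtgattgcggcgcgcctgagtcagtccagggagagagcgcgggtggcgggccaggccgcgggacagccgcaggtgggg
Ttyh2: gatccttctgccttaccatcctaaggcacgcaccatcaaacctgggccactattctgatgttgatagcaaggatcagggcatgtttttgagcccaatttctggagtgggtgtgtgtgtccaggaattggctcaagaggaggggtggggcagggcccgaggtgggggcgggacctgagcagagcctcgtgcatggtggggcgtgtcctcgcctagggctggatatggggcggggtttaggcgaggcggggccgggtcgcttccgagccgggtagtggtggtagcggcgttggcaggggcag
Grip2: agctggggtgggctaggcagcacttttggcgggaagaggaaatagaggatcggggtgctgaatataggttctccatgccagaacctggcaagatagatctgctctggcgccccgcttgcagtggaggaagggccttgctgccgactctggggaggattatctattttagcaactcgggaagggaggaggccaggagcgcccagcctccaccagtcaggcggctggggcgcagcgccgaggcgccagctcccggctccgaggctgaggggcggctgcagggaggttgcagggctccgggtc

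Searched on both strands were TGGGAA (the core bound by RBPJ of the Notch pathway), GGAATG (TEAD), TGTTTAC (forkhead factors), CAGCTG (an E-box) and the CArG box of serum response factor, a motif of smooth muscle genes. The Colec11 window held 1 match to TGGGAA, at position -137 on the other strand, and 2 E-boxes, at -109 and -2, counted from the start to the first base of the match. The Tspan15, Ttyh2 and Grip2 windows held none of the 5 motifs. Among all 32851 windows of the table, 25.6% held TGGGAA, 14.7% GGAATG, 3.65% TGTTTAC, 16.3% CAGCTG and 1.63% a CArG box. The Colec11 window had 3 CpG and 54% GC, whereas those of Tspan15, Ttyh2 and Grip2 had 29, 15 and 16 CpG, with a median of 7 over all windows. Net1, also high in one mural cluster and low in the other, had 2 windows that are not printed, of which 1 held TGGGAA at -27 on the other strand and the other none of the motifs. Windows were given for 6 of the 10 genes, and a match is a description of letters, not of binding.

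**Figure D1:**
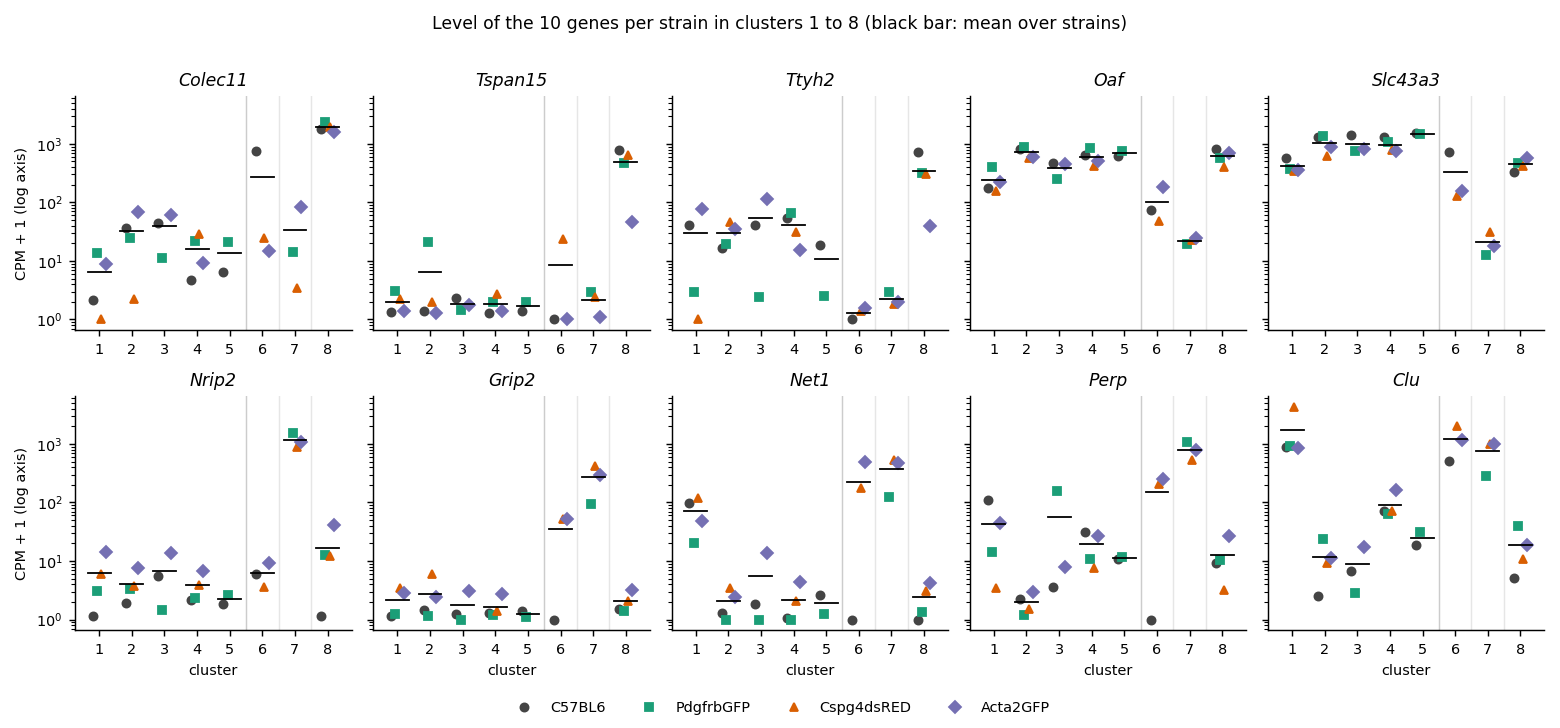
CPM + 1 on a log axis for each of the 10 genes in clusters 1 to 8, with one point per strain for sums of 3 or more cells and a black bar at the mean over strains. Colec11, Tspan15 and Ttyh2 peak in cluster 8 with Acta2GFP low for the latter 2, Oaf and Slc43a3 are lowest in cluster 7, and Clu is as high in cluster 1 as in clusters 6 and 7.

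Colec11 encodes collectin-11, a secreted lectin that binds sugars and starts the lectin pathway of complement (chr12:28594173-28623377, minus strand, GRCm38). Its level in cluster 8 was 1775 CPM in C57BL6 cells, and 2378, 1929 and 1621 CPM in the PdgfrbGFP, Cspg4dsRED and Acta2GFP cells, a mean of 1926 ± 327 (SD, n = 4). Cluster 7 had 13.2, 2.40 and 81.1 CPM in PdgfrbGFP, Cspg4dsRED and Acta2GFP. In the last of these, 1 of 33 cells held 77.3% of the counts, and the median cell was at 20.7 CPM. The 4 strains of cluster 8 lay close together and far above every fibroblast sum, the highest of which was 67.6 CPM. The fitted log2 fold change of cluster 8 over cluster 7 was 5.92 ± 1.03 (SE). Within strains, cluster 8 was above clusters 1 to 5 by 6.52 ± 0.70 on the log2(CPM + 1) scale (SD, n = 4), with the C57BL6 cells at 6.57.

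Cluster 6 held Colec11 unevenly. It was at 759 CPM in the 3 C57BL6 cells, 2 of which had 20 or more counts, but at 23.5 and 13.5 CPM in Cspg4dsRED and Acta2GFP. These are the C57BL6 cells that also carried fibroblast markers, while their pericyte markers summed to 677 CPM against 278.05 and 125.23 CPM in the other strains. Their part in this level was not tested.

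Tspan15 encodes a tetraspanin of the TspanC8 group, which escort the membrane protease ADAM10 (chr10:62185396-62231251, minus strand). In cluster 8 the C57BL6 sum stood at 793 CPM, with 462 CPM in PdgfrbGFP and 653 CPM in Cspg4dsRED but 45.1 CPM in Acta2GFP. Outside cluster 8 the highest sums were 22.5 CPM in cluster 6 of Cspg4dsRED and 19.8 CPM in cluster 2 of PdgfrbGFP, where 1 of 49 cells held 96.7% of the counts, and cluster 7 lay between 0.0836 and 1.96 CPM. No sum of another cluster reached the lowest of cluster 8. For Tspan15, the fitted log2 difference of cluster 8 from cluster 7 was 8.38 ± 1.44 (SE), and the within-strain difference from fibroblasts was 7.11 ± 1.80 (SD, n = 4), 9.06 in C57BL6.

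Ttyh2 encodes a membrane protein of the tweety family (chr11:114675431-114720977, plus strand). In cluster 8 the C57BL6 cells had 714 CPM, those of PdgfrbGFP and Cspg4dsRED 316 and 305 CPM, and those of Acta2GFP 38.4 CPM. In cluster 7 it was 0.837 to 1.96 CPM and in cluster 6 at most 0.540 CPM. Unlike Tspan15, Ttyh2 was present in some fibroblasts, up to 115.07 CPM in cluster 3 of Acta2GFP, so that the Acta2GFP sum of cluster 8 overlapped the fibroblast range. Both of these Acta2GFP values rested on single cells, as 1 of 14 cells held 83.1% of the counts in cluster 3 and 1 of 15 cells 93.4% in cluster 8. The log2(CPM + 1) difference of cluster 8 from clusters 1 to 5 was 4.49 in C57BL6, 3.76 in PdgfrbGFP and 3.25 in Cspg4dsRED, and -0.24 in Acta2GFP. The difference of cluster 7 from fibroblasts was -3.88 ± 0.81 (SD, n = 3), so Ttyh2 was lower in smooth muscle-like cells than in fibroblasts in all 3 strains. For Ttyh2, the fitted log2 difference of cluster 8 from cluster 7 was 7.39 ± 1.30 (SE).

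The 15 Acta2GFP cells of cluster 8 thus had Colec11 at the level of the other strains but Tspan15 and Ttyh2 well below them. In these cells 100% had 20 or more counts of Colec11, 13.3% of Tspan15 and 6.67% of Ttyh2, against 72.7% and 78.8% for the latter 2 in C57BL6, 48.3% and 51.7% in Cspg4dsRED and 21.8% and 21.01% in PdgfrbGFP. Their median depth was 350011 counts per cell, against 143791 to 215419 in the other strains. Their pericyte markers summed to 7272 CPM against 19751 to 24603, all 5 with counts, and their smooth muscle markers to 4033 CPM against 201.05 to 1170. Their 5 fibroblast markers were at 2645 CPM against 513 to 1266. The part of depth, of these markers, of the reporter and of the elastase in the low Tspan15 and Ttyh2 was not tested.

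The 3 pericyte genes were not high in the same cells to the same degree. In cluster 8, 91.3% of the cells had 20 or more counts of at least 1 of the 3 genes, and 16.8% had that many of all 3. The share with all 3 differed by strain, with 42.4% in C57BL6, 24.1% in Cspg4dsRED, 9.24% in PdgfrbGFP and 6.67% in Acta2GFP. In PdgfrbGFP, the strain with the most cells, 21.8% passed that level for Tspan15, 21.01% for Ttyh2 and 10.1% for both. Spearman's rho of CPM across the PdgfrbGFP cells was 0.19 between Tspan15 and Ttyh2, 0.015 between Colec11 and Tspan15 and 0.10 between Colec11 and Ttyh2. Across the 33 C57BL6 cells the same values were 0.16, -0.17 and 0.010. Cells of one strain share mice and a plate and differ in depth, so these weak values are a description only. At 20 or more counts Colec11 was found in 77.3% to 100% of the cells by strain. Tspan15 and Ttyh2 ran from 13.3% and 6.67% in Acta2GFP to 72.7% and 78.8% in C57BL6, where Colec11 was at 81.8%.

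Oaf is the mouse homolog of the Drosophila gene out at first and encodes a protein predicted to be secreted (chr9:43221235-43239911, minus strand). The cluster 8 sums were 825 CPM for C57BL6 and 572, 402 and 704 CPM for the PdgfrbGFP, Cspg4dsRED and Acta2GFP strains. In cluster 7 it was 18.2, 21.99 and 23.3 CPM in the 3 reporter strains, a mean of 21.2 ± 2.69 (SD, n = 3). The sums of cluster 8 and cluster 7 did not overlap. In PdgfrbGFP, however, the sum of cluster 8 came from a part of the cells, as 27.7% had 20 or more counts and the median cell was at 21.05 CPM, against 20.6 CPM in cluster 7 of the same strain. The median cells of cluster 8 were at 723, 117.95 and 843 CPM in C57BL6, Cspg4dsRED and Acta2GFP. For Oaf, the fitted log2 difference of cluster 8 from cluster 7 was 4.67 ± 0.67 (SE). Against fibroblasts, however, cluster 8 differed by only 0.09 ± 0.46 (SD, n = 4) on the log2(CPM + 1) scale, higher in 2 strains and lower in the other 2. The difference of cluster 7 from fibroblasts was -5.28 to -4.27 in its 3 strains. In cluster 6 Oaf was at 72.5, 46.6 and 184.07 CPM in C57BL6, Cspg4dsRED and Acta2GFP, above the range of cluster 7.

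Slc43a3, a membrane transporter of purine nucleobases (chr2:84936579-84958509, plus strand), was likewise low in cluster 7, and highest in fibroblast clusters 2 to 5. In cluster 8 the C57BL6 sum was 336 CPM, and the 3 reporter strains had 464, 411 and 579 CPM. In cluster 7 it was 11.8, 29.98 and 17.2 CPM in the reporter strains. Cluster 6 had 721, 127.51 and 155.46 CPM in C57BL6, Cspg4dsRED and Acta2GFP, a range that overlapped cluster 8 and lay above cluster 7, with 88.7% of the C57BL6 counts in 1 of 3 cells. The median cells of cluster 8 were at 30.99, 24.1, 6.11 and 94.3 CPM in C57BL6, PdgfrbGFP, Cspg4dsRED and Acta2GFP, so that the sums were carried by a part of the cells. Clusters 2 to 5 held 618 to 1516 CPM and did not overlap cluster 8, while cluster 1, with 349 to 582 CPM, did. The fitted log2 fold change of cluster 8 over cluster 7 was 4.58 ± 0.71 (SE). Cluster 8 was below clusters 1 to 5 in 4 of 4 strains, by -1.09 ± 0.75 (SD), from -2.01 in C57BL6 to -0.32 in Acta2GFP.

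In clusters 1 to 5, 59.4% of the cells had 20 or more counts of both Oaf and Slc43a3, against 10.2% in cluster 8 and 0 cells in cluster 7. The share in cluster 8 ran from 3.36% in PdgfrbGFP to 40% in Acta2GFP, the strain with the highest median depth in this cluster. The median depth of cluster 8 was below that of each of clusters 1 to 5 in C57BL6 and PdgfrbGFP. In Acta2GFP it was 350011 counts, against 278290 to 363545 in clusters 1 to 5. Thinned to 50000 counts, the ranges over all strains and clusters overlapped. A count of Slc43a3 was then found in 44.8% to 80% of the cells of cluster 8, 63.6% to 100% of those of clusters 1 to 5 and 21.6% to 36.4% of those of cluster 7. Within each strain this share was lower in cluster 8 than in clusters 2 to 5. In Acta2GFP it was 80% against 92.9% or more, and in Cspg4dsRED 44.8% against 100%. For Oaf the thinned shares were 58.6% to 93.3% in cluster 8, 66.7% to 100% in clusters 1 to 5 and 10.8% to 55.6% in cluster 7.

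**Figure D2:**
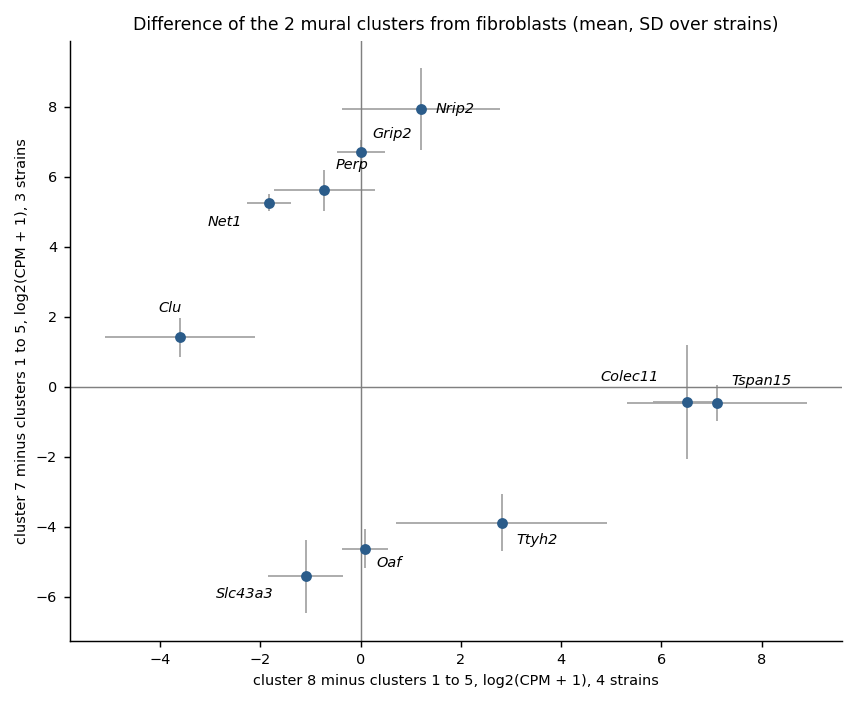
Mean difference in log2(CPM + 1) of cluster 8 (x axis, 4 strains) and of cluster 7 (y axis, 3 strains) from fibroblast clusters 1 to 5 for each gene, with bars for the SD over strains. Colec11 and Tspan15 lie at the right near 0 on the y axis, Oaf and Slc43a3 at the bottom near 0 or below on the x axis, and Nrip2, Grip2, Perp and Net1 at the top.

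Nrip2 encodes a protein that binds nuclear receptors and damps their activity (chr6:128399296-128416427, plus strand). In cluster 7 it was 1557 CPM in PdgfrbGFP, 885 in Cspg4dsRED and 1067 in Acta2GFP, and in cluster 8 it was 0.136, 11.6, 11.1 and 39.7 CPM in C57BL6, PdgfrbGFP, Cspg4dsRED and Acta2GFP. It was found in most cells of the cluster, with 77.8%, 90.7% and 90.9% of the cells of cluster 7 at 20 or more counts. For Nrip2, the fitted log2 difference of cluster 8 from cluster 7 was -5.89 ± 0.75 (SE). Nrip2 was low in the other smooth muscle-like cluster, with 2.59 to 8.10 CPM in cluster 6, a range that overlapped that of the fibroblasts, 0.169 to 13.5 CPM. Cluster 7 was above fibroblasts by 7.93 ± 1.18 (SD, n = 3).

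Nrip2 shares 550 bases of exon with Gm44596 on the same strand and a shorter stretch with Itfg2 on the other strand. How the authors' counting treated such reads, and whether it used strand, is not given in the sources used here, so the level of Nrip2 is uncertain. Gm44596 was at 531, 286.54 and 360 CPM in the same 3 sums of cluster 7 and at most 13.1 CPM elsewhere. Itfg2 did not go along with Nrip2, at 13.7, 44.045 and 57.5 CPM in cluster 7 and up to 188.09 CPM in cluster 6.

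Grip2 encodes a scaffold with PDZ domains that binds AMPA-type glutamate receptors in neurons (chr6:91761509-91827250, minus strand). Cluster 7 had 91.3 CPM in PdgfrbGFP, 422 in Cspg4dsRED and 298 in Acta2GFP, and cluster 8 had at most 2.24 CPM. In PdgfrbGFP 1 of the 9 cells of cluster 7 held 80.1% of the counts and the median cell had none. No fibroblast sum exceeded 4.92 CPM. The fitted log2 fold change of cluster 8 over cluster 7 was -7.80 ± 1.19 (SE). In cluster 6 Grip2 was 51.1 and 50.2 CPM in Cspg4dsRED and Acta2GFP and at 0 counts in the 3 C57BL6 cells. By reads alone this allows up to 2.94 CPM, but 3 empty cells set no limit below 100% on the share of cells. The Acta2GFP value of cluster 6 rested on 1 of 3 cells, which held 97.8% of the counts, with the median cell at 2.57 CPM.

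Most cells of cluster 7 had Nrip2 or Grip2, mainly through Nrip2, whose level is uncertain. Nrip2 alone reached 20 or more counts in 77.8%, 90.7% and 90.9% of the PdgfrbGFP, Cspg4dsRED and Acta2GFP cells, and Grip2 in 22.2%, 60% and 33.3%. In cluster 7, 8 of 9 PdgfrbGFP cells, 71 of 75 Cspg4dsRED cells (94.7%, 95% Wilson interval 87.1% to 97.9%) and 31 of 33 Acta2GFP cells had 20 or more counts of Nrip2 or Grip2. In cluster 8 these were 0 of 33 C57BL6 cells, where a count of 0 allows up to 9.09% (3 cells of 33, with the 95% Wilson interval reaching 10.4%), and 0.840%, 3.45% and 13.3% of the cells in the other strains. Cells with both a pericyte gene and Nrip2 or Grip2 at that level numbered 3 in cluster 8 and 3 in cluster 7, of which 1 was the single C57BL6 cell of that cluster. Intervals and limits cover counting error only.

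Net1 encodes an exchange factor that activates the small GTPase RhoA (chr13:3882018-3918220, minus strand). Cluster 7 had 121.68 CPM in PdgfrbGFP, 533 in Cspg4dsRED and 474 in Acta2GFP, and cluster 8 had at most 3.29 CPM. The 33 C57BL6 cells of cluster 8 had 0 counts. This allows up to 0.407 CPM by reads alone and, by cells, a share of up to 9.09%. The PdgfrbGFP value of cluster 7 rested on 2 of 9 cells with counts, 1 of them with 82.7% of the counts. The fitted log2 fold change of cluster 8 over cluster 7 was -7.65 ± 1.15 (SE). In cluster 6 Net1 was at 175.9 CPM in Cspg4dsRED, against 533 in cluster 7 of that strain. In the 3 Acta2GFP cells it was at 482 CPM, against 474 in cluster 7. Both lay within the range of cluster 7, whose low end was the PdgfrbGFP value. The 3 C57BL6 cells of cluster 6 had 0 counts, which by reads alone allows up to 2.94 CPM. These 3 empty cells set no limit below 100% on the share of cells. The difference of cluster 8 from the pooled fibroblasts was -1.83 ± 0.44 (SD, n = 4) on the log2(CPM + 1) scale, but -3.04 and -0.58 with pseudocounts of 0.1 and 10 CPM. The pooled value holds cluster 1, with a mean of 69.9 CPM, and the mean of cluster 8, 1.43 CPM, was near those of clusters 2, 4 and 5, 1.03, 1.13 and 0.927 CPM. Cluster 3 had a mean of 4.55 CPM, with sums from 0 to 12.8 CPM.

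Perp encodes a small membrane protein that p53 induces and that epithelial desmosomes need (chr10:18845020-18857073, plus strand). The cluster 7 sums were 1083 CPM in PdgfrbGFP, 522 in Cspg4dsRED and 796 in Acta2GFP, above all other sums. Cluster 6 had 205.04 and 253.17 CPM in Cspg4dsRED and Acta2GFP but 0 counts in the 3 C57BL6 cells. By reads alone this allows up to 2.94 CPM, but 3 empty cells set no limit below 100% on the share of cells. Cluster 8 held 2.25 to 25.8 CPM. Fibroblasts were uneven, from 0.196 to 155.41 CPM. The fitted log2 fold change of cluster 8 over cluster 7 was -6.07 ± 0.95 (SE).

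Clu encodes clusterin, a secreted chaperone (chr14:65968483-65981547, plus strand), and was the least particular to smooth muscle. The sums of cluster 7 were 285.55 CPM in PdgfrbGFP, 977 in Cspg4dsRED and 1005 in Acta2GFP, and in cluster 8 it was 4.07, 39.1, 9.60 and 17.5 CPM. Cluster 6 reached 502, 2011 and 1185 CPM in C57BL6, Cspg4dsRED and Acta2GFP, and cluster 1 reached 896, 908, 4257 and 842 CPM. The strain ranges of clusters 1, 6 and 7 overlapped, and their sums lay above those of clusters 2 to 5, at 1.53 to 160 CPM. The PdgfrbGFP sum of cluster 7 rested on 1 of 9 cells, which held 91.2% of the counts, and the median cell there was at 5.46 CPM, within the range of clusters 2 to 5. For Clu, the fitted log2 difference of cluster 8 from cluster 7 was -5.10 ± 0.79 (SE). The difference of cluster 8 from the pooled fibroblasts was -3.60 ± 1.5 (SD, n = 4) on the log2(CPM + 1) scale. The pooled value holds cluster 1, with a mean of 1726 CPM, and the mean of cluster 8, 17.6 CPM, lay between those of clusters 2, 3 and 5, 10.5, 8.04 and 23.98 CPM. Cluster 4, with a mean of 90.02 CPM and sums of 61.3 to 160 CPM, lay above every sum of cluster 8.

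**Figure D3:**
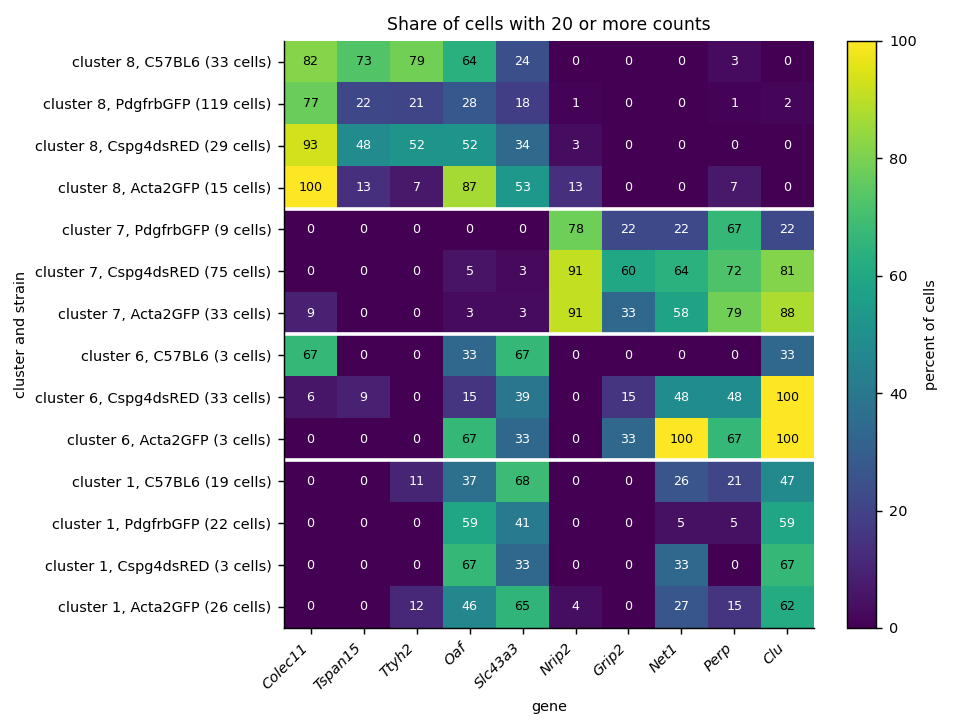
Percent of cells with 20 or more counts of each gene (columns) for each strain with 3 or more cells in clusters 8, 7, 6 and 1 (rows, with the number of cells). In the 3 strains of cluster 7 shown at most 9.09% of cells pass for the 3 pericyte genes, in cluster 8 at most 13.3% for Nrip2, and Clu passes in 100% of the Cspg4dsRED and Acta2GFP cells of cluster 6.

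Between clusters 8 and 7, 23 of 11867 genes (0.194%) had an adjusted p under 0.05 (edgeR quasi-likelihood test). The 10 genes were chosen on this contrast and are among the 23 for that reason, and nothing is read from it. With the strain as a block, which pairs the clusters of one strain, 82 genes passed (0.691%). Without PdgfrbGFP, whose cluster 7 stood apart, the log2 fold changes of Grip2, Net1 and Clu were -7.71 ± 0.80, -7.49 ± 0.65 and -6.13 ± 0.60 (SE). Without this strain 0 genes passed in edgeR (1514 at an unadjusted p under 0.05), without Cspg4dsRED 0.112% and without Acta2GFP 0.987%.

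The fibroblasts hold no cell of the contrast that chose the genes, but the genes were chosen with results over all clusters known. The adjusted p values of the 10 genes are therefore no independent support, here and in the later comparison against all fibroblasts. Between cluster 1 and clusters 2 to 5, 1.33% of 13201 genes passed, with 74 genes higher in cluster 1 (0.561%). With the strain as a block, which pairs the sums, 0.742% passed, and leaving out a strain gave 0.265% (C57BL6), 0.356% (PdgfrbGFP), 0.748% (Cspg4dsRED) and 0.201% (Acta2GFP). The clusters were formed by the study from the same counts, so these tests show how evenly the strains carry a difference and not an independent separation. Of the 10 genes, 1 passed, Clu.

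Clu was higher in cluster 1, with 896, 908, 4257 and 842 CPM in the 4 strains (C57BL6 and PdgfrbGFP first, then Cspg4dsRED and Acta2GFP) against 26.5, 36.8, 136.7 and 72.97 CPM in clusters 2 to 5. The groups did not overlap, and the fit gave a difference of 4.62 ± 0.69 on the log2 scale (SE; adjusted p = 0.00784 in edgeR). The Cspg4dsRED sum of cluster 1 held 3 cells, and without this strain the edgeR adjusted p was 0.00500. Without C57BL6 it was 0.0581, without PdgfrbGFP 0.0602 and without Acta2GFP 0.0835, with fold changes of 4.55 to 4.83.

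Net1 was also above clusters 2 to 5 in 4 of 4 strains, at 95.2, 19.3, 117.2 and 47.9 CPM against 0.0932 to 3.83 CPM, but did not pass (5.43 ± 1.19, edgeR adjusted p = 0.0512). It passed in 2 of 11 settings, DESeq2 (adjusted p = 7.72e-07) and limma voom (adjusted p = 0.0142). In PdgfrbGFP all counts of Net1 in cluster 1 came from 1 cell, and likewise in Cspg4dsRED. Slc43a3 was lower in cluster 1 in 4 of 4 strains without passing (-1.33 ± 0.32, edgeR adjusted p = 0.0676). With the strain as a block it passed (-1.30 ± 0.18, edgeR adjusted p = 0.0315), as it did in DESeq2 (adjusted p = 0.01301). Oaf was lower in all 4 strains (-1.34 ± 0.38, edgeR adjusted p = 0.149).

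The remaining 6 genes did not pass between cluster 1 and the other fibroblasts. Perp was 108.2 CPM in cluster 1 of C57BL6 and 2.47 CPM in that of Cspg4dsRED, against 12.4 to 13.1 CPM in clusters 2 to 5. Ttyh2 was higher in cluster 1 in 2 strains and lower in the other 2. Colec11 was lower in 4 of 4 strains, at most 12.6 CPM against 13.9 to 41.4. For these 6 genes the edgeR adjusted p ran from 0.773 to 1.00.

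Cluster 6 was compared with all fibroblasts in C57BL6 (3 cells), Cspg4dsRED (33 cells) and Acta2GFP (3 cells), and 91 of 13446 genes passed (0.677%). With the strain as a block 1.38% passed, and without Cspg4dsRED 0 in edgeR (4445 at an unadjusted p under 0.05). Of the 10 genes, 9 were above the count minimum and 0 passed in edgeR (4 passed in at least 1 other setting), whereas Acta2, Myh11, Tagln and Cnn1 did. Tspan15 was below the count minimum.

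In C57BL6 all counts of Clu in cluster 6 came from 1 of the 3 cells. Clu was higher in cluster 6 in 3 of 3 strains, by 2.54 ± 0.69 (SE, edgeR adjusted p = 0.138), and passed with the strain as a block (2.74 ± 0.42, edgeR adjusted p = 2.19e-08), without a count filter (edgeR adjusted p = 0.00566) and in limma voom (adjusted p = 0.0116). Net1 and Perp were at 0 counts in the 3 C57BL6 cells and far above fibroblasts in the other 2 strains, and their fold changes were 4.92 ± 1.68 and 3.57 ± 1.61 (edgeR adjusted p = 0.204 and 0.409). Without C57BL6 the values were 5.04 ± 0.83 and 4.06 ± 0.77 (edgeR adjusted p = 0.0606 and 0.0953). Net1 passed without a count filter (edgeR adjusted p = 0.0186) and in DESeq2 (adjusted p = 0.02398), and Grip2 in DESeq2 (adjusted p = 0.01597). Ttyh2 was lower in 3 of 3 strains, at most 0.540 CPM against 30.9 to 45.6 CPM, by -6.46 ± 1.94 (edgeR adjusted p = 0.142), and passed in DESeq2 (adjusted p = 0.000696) and limma voom (adjusted p = 0.0148). Colec11 turned with 1 strain, from 3.72 ± 1.39 to -0.16 ± 1.41 without C57BL6, and Nrip2 did not differ beyond its error (0.57 ± 1.43).

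**Figure D4:**
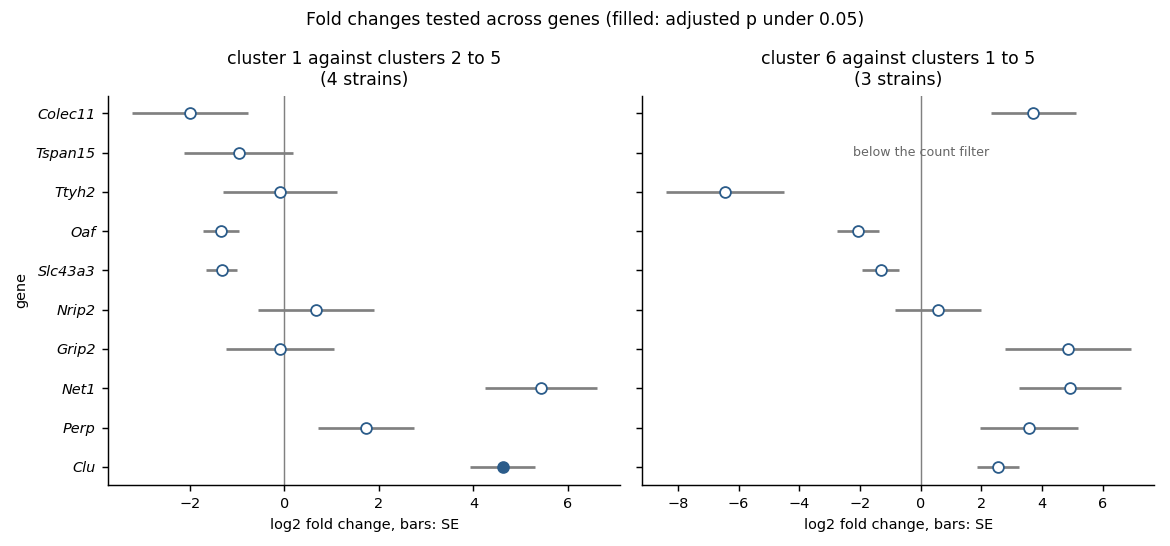
Log2 fold changes with SE from the edgeR fits across all genes, for cluster 1 against clusters 2 to 5 (left, 4 strains) and cluster 6 against clusters 1 to 5 (right, 3 strains), with filled points for an adjusted p under 0.05. Clu on the left, at 4.62, is the filled point, and Tspan15 has no value on the right.

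In cluster 6 all 33 Cspg4dsRED cells had 20 or more counts of Clu, 48.5% had that many of Net1 and 48.5% of Perp. All 3 genes passed in 10 of these cells, while 5 of 33 had that many of Nrip2 or Grip2 (15.2%, 95% Wilson interval 6.65% to 30.9%). In cluster 7, 37.3% of the cells had all 3 and 45.8% had both Nrip2 and Grip2, counted over all strains with the single C57BL6 cell. By strain, all 3 were found in 0, 38.7% and 45.5% of the PdgfrbGFP, Cspg4dsRED and Acta2GFP cells, and both Nrip2 and Grip2 in 11.1%, 56% and 30.3%. In the fibroblasts 1 of 926 cells had all 3 of Net1, Perp and Clu, and 2 had Nrip2 or Grip2. At least 1 of Net1, Perp and Clu passed in 11.9% of the fibroblasts, and in 63.6% to 73.7% of those of cluster 1 by strain.

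Low counts outside the cells where a gene was high differed between genes and plates. Net1 had a count in 1.94% of such wells on plate heart_203s, the only C57BL6 plate used for this, and in 2.703% on the PdgfrbGFP plate. On the plates of Cspg4dsRED and Acta2GFP it had one in 40.4% and 44.95%. Grip2 had one in 4.79%, 23.6% and 43.7% on the PdgfrbGFP, Cspg4dsRED and Acta2GFP plates, and Clu in 36.6% to 97.3% over these 4 plates. A count of Colec11 was found in 25.2% to 29.03% of the C57BL6 fibroblasts by cluster but in 71.4% to 95.5% of the PdgfrbGFP ones. At 20 or more counts the fibroblast shares for Colec11 were at most 14.3% in all strains. Over the wells of a plate outside cluster 8, the count of Colec11 went with the summed counts in the cluster 8 cells of its row and column. Spearman's rho was 0.43 for C57BL6 (plate heart_203s alone) and 0.64, 0.33 and 0.67 for PdgfrbGFP, Cspg4dsRED and Acta2GFP. For Clu outside clusters 1, 6 and 7 the values were 0.52, 0.61, 0.28 and 0.37. For Ttyh2 they were 0.088 to 0.26. The part of such wells in the low counts was not tested.

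Levels of different genes were compared per kilobase of exon. In cluster 8 Colec11 was the highest of the 10 genes, with 1188 ± 201.6 CPM per kilobase (SD, n = 4), before Oaf with 237.96 ± 69.1, Slc43a3 with 100.2 ± 22.9, Ttyh2 with 91.8 ± 74.5 and Tspan15 with 59.7 ± 39.7. The strain ranges of the last 3 overlapped, and that of Ttyh2 (10.3 to 191.08) also overlapped that of Oaf (152.85 to 313.94). In cluster 7 the means were 410 ± 143.9 CPM per kilobase for Perp (SD, n = 3), 311 ± 92.5 for Nrip2, whose level is uncertain, 220 ± 118.5 for Clu, 72.1 ± 42.6 for Net1 and 28.9 ± 17.8 for Grip2. The strain ranges of Perp (267.16 to 555), Nrip2 (235.63 to 414) and Clu (83.1 to 292.29) overlapped, and in Cspg4dsRED Clu, at 284.18, was above Perp. Exon lengths ran from 1621 bases in Colec11 to 9359 bases in Grip2.

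The genes most like each of the 10 were taken by Pearson's r of log2(CPM + 1) over the 27 sums of strain and cluster, among 8223 genes above a count minimum. Tspan15, Grip2 and Net1 did not pass this minimum themselves. Colec11 was most like Vtn (r = 0.877), Kcnj8 (0.849) and Tmem134 (0.808), and Tspan15 most like Kcnj8 (0.824), Sept7 (0.808) and Pdgfrb (0.799). Kcnj8 and Vtn are pericyte markers of the list above, by which the pericyte-like cells were named. Ttyh2 went with Plxdc1 (0.855), Apobec1 (0.836) and Dennd2a (0.832). Oaf went with Cp (0.936), Cd47 (0.916) and Lgals9 (0.890), and Slc43a3 with Matn2 (0.924), Ang (0.918) and Rnase4 (0.917). For the smooth muscle genes, Nrip2 went with Pln (0.852), mt-Tl2 (0.813) and Mir3064 (0.797), and Grip2 with Tpm1 (0.826), Dstn (0.825) and Nrip2 (0.807). Tpm1 encodes a tropomyosin of the contractile apparatus, and Pln regulates calcium uptake in muscle. Net1 went with Prkag2 (0.841), Nudt4 (0.824) and Clu (0.783), Perp with Chchd10 (0.785), Cd200 (0.743) and Ppp1r12b (0.721), and Clu with Gm26776 (0.837), Ccdc3 (0.834) and Cd59a (0.827). The 10 genes were chosen by a contrast of pericyte-like and smooth muscle-like sums, and those sums are among the 27. Likeness to markers of these cells therefore follows in part from the choice and is no support for a cell identity. The sums also share strains, plates and depth, and these values are a description.

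Of the 45 genes in 9 lists of relatives and known partners, 19 were above the count minimum between clusters 8 and 7, and 0 passed (edgeR), with 3 at an unadjusted p under 0.05. Over all genes, 817 of 11867 were under that unadjusted p and 0.194% passed. Of the lectin pathway genes, the collectin Colec12 was higher in fibroblasts, a mean of 194.55 to 465 CPM in clusters 1 to 5, than in cluster 8 (73.5) or cluster 7 (4.88), the protease Masp1 was at a mean of 20.6 CPM in cluster 8 with 82.4 CPM in a single strain, and Mbl1, Mbl2 and Fcnb had 0 counts in every sum. Adam10, the partner of Tspan15, was at 84.6 ± 47.5 CPM (SD, n = 4) in cluster 8 and 17.2 ± 14.4 (SD, n = 3) in cluster 7. Its means were 67.5 CPM in cluster 6 and 37.7 to 73.2 CPM in clusters 1 to 5, where Tspan15 was low. Ttyh1 and Ttyh3, the other tweety genes, were at mean levels of 6.18 and 5.32 CPM in cluster 8. The AMPA receptor genes Gria1 and Gria2 were at 0.0186 and 0.121 CPM in cluster 7, where Grip2 was high, and Grip1 was at 0.0186 CPM there. Rhoa, the target of Net1, had cluster means of 439 to 767 CPM, with single sums from 8.82 CPM in cluster 6 to 895 CPM in cluster 4. Of the desmosome genes, Dsp had a mean of 3.35 CPM in cluster 7 and of 130 CPM in cluster 6, where its sums ran from 0 to 200.7 CPM. Jup had mean levels of 246.44, 345 and 348 CPM (clusters 7, 6 and 8), and Dsg2, Dsc2 and Pkp2 at 7.38 CPM or less in these clusters. In cluster 1 and in cluster 6 against the fibroblasts, 0 of 29 and 0 of 26 genes of the lists above the count minimum passed, with 4 and 5 at an unadjusted p under 0.05, where 1171 of 13201 and 1566 of 13446 genes were over all and 1.33% and 0.677% passed.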

How the data were processed

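Single heart cells were sequenced with Smart-seq2 (50 base reads, no molecular identifiers). The deposited values are raw read counts per gene and cell, made by the authors with Trim Galore, TopHat2, samtools and featureCounts on GRCm38; the authors also filtered and clustered the cells. Strandedness and annotation release are not given in the sources used here. Names and exon lengths came from GENCODE M21 (46005 of 46517 genes), promoters from RefSeq. The 92 ERCC spike-ins (1.82% of counts) were left out.

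Counts were summed per strain and cluster (3 or more cells) and tested with edgeR 4.0.16 (quasi-likelihood, TMM, filterByExpr, Benjamini-Hochberg adjustment, threshold 0.05) in R 4.3.3, after a check on simulated counts. Alternatives used DESeq2 1.42.0, limma 3.58.1, other scaling, filter and cell minimum, equal weight per cell, and each strain left out. No doublet caller was run. The shared strain pairs the sums, in the reporter strains through a common plate, though the labels name no animal. The C57BL6 cells of clusters 6, 7 and 8 were all on plate heart_203s, while its fibroblasts were also on heart_316s and heart_204s. Deviations of same-strain sums correlated at 0.0898 to 0.125 (clusters 8 and 7), 0.0592 to 0.150 (cluster 1) and -0.0515 to 0.0688 (cluster 6). The 10 genes and all lists were chosen with earlier results of these data known. The named genes are those 10, the 3 genes most like each, the listed relatives and the markers. Cells were thinned to 50000 counts where said, and 2 cells were shallower. Clusters 6, 7 and 8 held 39, 118 and 196 cells. By strain, cluster 8 held 33 (C57BL6), 119 (PdgfrbGFP), 29 (Cspg4dsRED) and 15 (Acta2GFP), and cluster 7 held 1, 9, 75 and 33.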

Additional observations from a re-analysis of the deposited data

Results flagged for a closer look

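In 4 of the 40 gene and cluster groups with 4 strains, a single strain stood far from the others by Dixon's criterion, where chance gives about 1 in 20. These were Tspan15 in cluster 2 of PdgfrbGFP at 19.8 CPM (96.7% of the counts in 1 of 49 cells, with the median cell at 0), Slc43a3 in cluster 1 of C57BL6 at 582 CPM, Clu in cluster 1 of Cspg4dsRED at 4257 CPM (3 cells) and Clu in cluster 4 of Acta2GFP at 160 CPM.

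Some genes moved opposite ways in different strains, by 1 or more on the log2(CPM + 1) scale, and these differences were not tested. Nrip2 in cluster 8 against fibroblasts was -1.12 in C57BL6 and 2.22 in PdgfrbGFP, where the C57BL6 level of cluster 8 rested on 1 count and 57.9% of the PdgfrbGFP counts came from 1 cell. Colec11 in cluster 7 against fibroblasts was -2.02 in Cspg4dsRED and 1.23 in Acta2GFP, where 1 of 33 cells of cluster 7 held 77.3% of the counts. Perp in cluster 1 against clusters 2 to 5 was -2.03 in Cspg4dsRED and 3.02 in C57BL6. In cluster 6 against fibroblasts, Colec11 was -1.27 in Acta2GFP and 5.35 in C57BL6, Net1 was -2.35 in C57BL6 and 5.06 in Acta2GFP, and Perp was -4.07 in C57BL6 and 3.95 in Cspg4dsRED.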

How the results depend on the processing

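Between clusters 8 and 7, where 0.194% of genes passed, the share was 0.379% with DESeq2 size factors, 0.855% without a count filter, 3.51% with DESeq2, 1.31% with limma voom, 0.691% with the strain as a block and 0% with at least 10 cells per sum (edgeR, 1514 genes at an unadjusted p under 0.05). Leaving out a strain gave 0% to 0.987%. For cluster 1, 1.33% became 0.530% (no filter), 5.30% (DESeq2), 2.93% (limma voom), 0.742% (strain as a block) and 0.748% (10 cells per sum), and 0.201% to 0.748% with a strain left out. For cluster 6, 0.677% (91 genes) became 0.839% (no filter), 7.4% (DESeq2), 3.95% (limma voom) and 1.38% (strain as a block), and 0% to 0.685% with a strain left out, while a minimum of 10 cells left fewer than 2 strains. The cause was not tested. Apart from Slc43a3 in cluster 1 and Clu in cluster 6, the paired fit changed no call of the 10 genes in those 2 comparisons. The median log2 fold change of all genes was 0.18 for clusters 8 and 7 and -0.30 for cluster 6, against 0.040 and -0.14 with DESeq2 size factors. For cluster 6 it was -1.11 without a count filter, -1.44 with the strain as a block and -1.56 in limma voom, the settings in which Clu passed. For clusters 8 and 7 these settings gave 0.057, 0.34 and 0.24. Few strains, a cluster 6 with 3 cells in each of 2 strains, and reads without molecular identifiers limit the precision.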

Other observations

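C57BL6 had 1 cell in cluster 7, which entered no comparison between strains or clusters but is counted in the shares given over all cells of cluster 7. In it Nrip2 was at 814 CPM, Grip2 at 1122 CPM and Clu at 3117 CPM, while Net1 had 0 counts and Perp was at 4.22 CPM. Ttyh2, a gene of the pericyte-like cells, was at 637 CPM in this cell, and Colec11 was at 4.22 CPM.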
